A study of Brachypodium distachyon with 12 samples.

Results

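The transcripts described here are those whose level fell as vascular bundles (VB) of the Brachypodium distachyon shoot apex gained protoxylem. They were chosen from the measured values of 9 VB libraries, and 702 of the 34310 transcripts in the counts passed. A transcript was taken when its mean over the VB libraries was at least 2 CPM (read pairs scaled to the library total), when log2(CPM + 1) was lower in VB type 3 than in VB type 1 within each of the 3 replicate numbers, and when the group means fell from type 1 through type 2 to type 3 by at least 1 in total. Levels, differences and directions between VB types are therefore a description, with no test, of values that the choice itself used. The parenchyma libraries were not used by the choice.

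A vascular bundle begins as a strand of procambium, the dividing precursor tissue near the shoot apical meristem. Protophloem and protoxylem differentiate from it, and protoxylem cells lay down thickened, lignified secondary walls and then die to leave water-conducting vessels. The number of visible protoxylem cells is therefore a visible sign of how far a young bundle has differentiated, and genes of the procambium, of dividing cells or of early wall growth are of interest along that order.

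All plants were wild type of the inbred line Bd21-3, 19 days old by the labels, grown in soil without treatment. Bundles were cut by laser from frozen sections and sorted by eye into VB type 1 with no protoxylem cell, VB type 2 with 1 or 2 and VB type 3 with 3 to 4, and parenchyma from the stem centre served as the control. Each of the 4 groups held 3 libraries, each made from 500 pg of RNA pooled from several dissected elements of a small number of plants. The labels name the tissue of every library meristem. Whether libraries with the same replicate number came from the same plants is not given in the sources used here.

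Between 9080187 and 13886473 read pairs per VB library remained after the dominant transcript Bradi2g12067.1 was set aside, which took 26.1 to 54.2% of the pairs in VB libraries. Parenchyma replicates 1 and 2 kept 23109703 and 18609862 pairs. Parenchyma replicate 3 stood apart, with 86.3% of its pairs on the dominant transcript, 1768043 pairs left and 15560 transcripts detected, against 19256 to 22463 in the other libraries. A count of 3 pairs corresponded to 0.216 to 0.330 CPM in VB libraries and to 0.130, 0.161 and 1.70 CPM in the parenchyma libraries, and these limits cover counting error only. XCP1 (Bradi2g39320.2), the xylem cysteine peptidase that marks xylem cells, had 960 ± 376 CPM in VB type 1, 1279 ± 842 CPM in VB type 2, 1249 ± 774 CPM in VB type 3 and 14.99 ± 13.4 CPM in parenchyma (SD, n = 3 each). PXY (Bradi3g17567.1), a receptor kinase of procambium cells in Arabidopsis, had 41.2 ± 22.8, 25.8 ± 12.5 and 51.3 ± 29.5 CPM in VB types 1, 2 and 3 and 4.93 ± 3.99 CPM in parenchyma. PIN1a (Bradi1g45020.1), an auxin efflux carrier of bundles, had 141 ± 12.8, 152 ± 56.1 and 249 ± 37.6 CPM in VB types 1, 2 and 3 and 27.9 ± 30.98 CPM in parenchyma. Neither XCP1 nor PXY nor PIN1a was among the falling transcripts.

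Of 17860 transcripts that reached the level of 2 CPM, VB type 3 was below VB type 1 in all 3 replicate numbers for 2388 (13.4%) and above it in all 3 for 2040 (11.4%). Means that also fell through VB type 2 left 1254, and a total fall of at least 1 left the 702 members, 3.93% of the transcripts at that level. The same rule turned to rising transcripts took 400. Among members the median difference of VB type 3 from VB type 1 was -1.54 on the log2(CPM + 1) scale, and the range ran from -1.002 to -3.95. A fall of at least 2 was seen for 180 members and a fall of at least 3 for 14.

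Shares of pairs are given here over the pairs left after the dominant transcript was set aside. The members together held 1.45, 2.03 and 2.16% of these pairs in the VB type 1 libraries. They held 0.970, 1.19 and 1.61% in VB type 2 and 0.596, 0.659 and 0.750% in VB type 3. In the parenchyma libraries they held 2.47, 1.72 and 1.16%. The VB types did not overlap in this share except that VB type 2 replicate 3 lay above VB type 1 replicate 1. The same order is seen library by library in the plot of member levels, where the spread between members was widest in parenchyma.

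**Figure D1:**
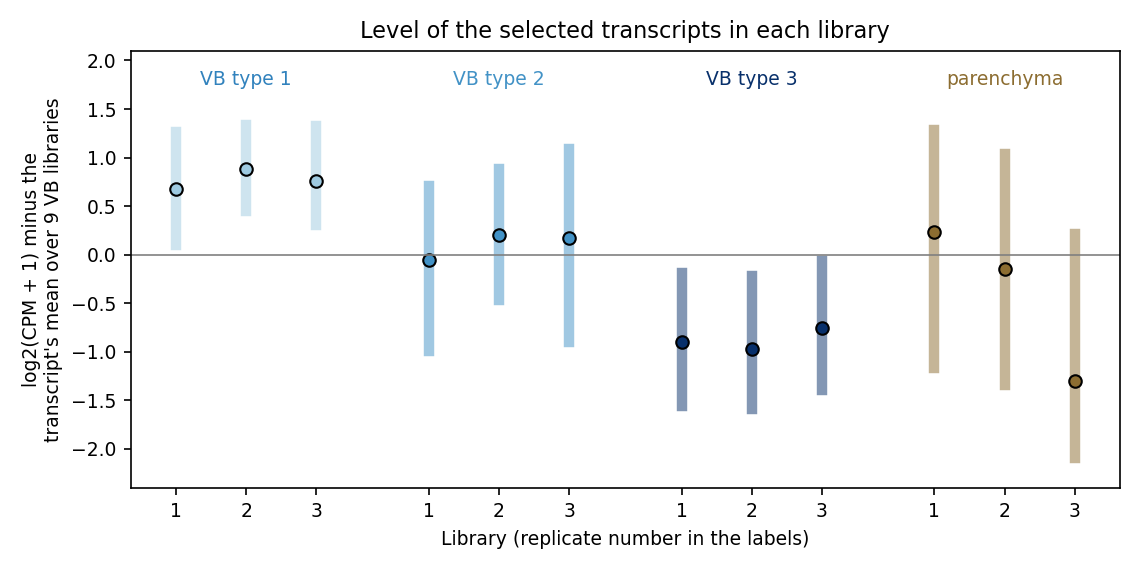
Level of the 702 selected transcripts in each of the 12 libraries, as log2(CPM + 1) minus the transcript's mean over the 9 VB libraries; points are medians over transcripts and bars run from the lower to the upper quartile. The medians lie between 0.68 and 0.88 in VB type 1, between -0.05 and 0.21 in VB type 2 and between -0.97 and -0.75 in VB type 3, an order the selection fixed, while the parenchyma libraries, which the selection did not use, have medians of 0.24, -0.15 and -1.30.

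The median step was -0.69 from VB type 1 to VB type 2 and -0.87 from VB type 2 to VB type 3. The larger step lay between types 1 and 2 in 294 members and between types 2 and 3 in 408. The fall was uneven over the replicate numbers. In the median member the smallest of the 3 same-number differences was -0.66 and the largest was -2.60, and 190 members (27.1%) fell by at least 1 in every number. All VB type 3 libraries lay below all VB type 1 libraries in 376 members (53.6%), against 4.72% of all transcripts at that level, a contrast the choice fixed in large part. In only 1 member did the 3 VB type 2 libraries lie wholly between the others.

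VB type 2 was the most scattered group. The median SD of log2(CPM + 1) among the 3 libraries of a group was 0.67 in VB type 1, 1.20 in VB type 2 and 0.92 in VB type 3 for the members. For all transcripts at that level it was 0.65, 0.77 and 0.69. The scatter of members in VB types 2 and 3 was thus above that of transcripts in general, while in VB type 1 it was close to it. Transcripts taken by the rising rule had the reverse, 0.87 in VB type 1 and 0.62 in VB type 3. The scatter was thus larger in the type where either rule asked for the lower level, and the part of level was not tested.

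To see how far the choice repeats in libraries it did not use, the rule was applied to 2 replicate numbers at a time and the third was then read. With number 1 left out, 603 of 1323 chosen transcripts (45.6%) were lower in VB type 3 than in VB type 1 in that number, against 52.8% of all transcripts at the level. With number 2 left out it was 551 of 962 (57.3%) against 50.4%, and with number 3 left out 648 of 1129 (57.4%) against 49.7%. The median difference in the number left out was 0, -0.27 and -0.26 for numbers 1, 2 and 3, compared with -1.54 for the members over all numbers. A fall of at least 1 in the number left out was seen for 20.7, 31.7 and 29.9% of the chosen transcripts, against 18.4, 20.9 and 18.0% of all. The direction thus repeated a little more often than among all transcripts in numbers 2 and 3 and less often in number 1. Of transcripts chosen by the rising rule, 40.2, 49.6 and 50.5% were higher in VB type 3 there, against 44.9, 48.9 and 49.2% of all. A difference of 0 was counted as not repeating. The shares of all transcripts were not matched for level. The median difference was -0.20 between 2 and 5 CPM and 0.01 between 20 and 50 CPM. The part of level in these shares was not tested. Of the transcripts chosen by the falling rule, 443, 405 and 450 were members.

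**Figure D2:**
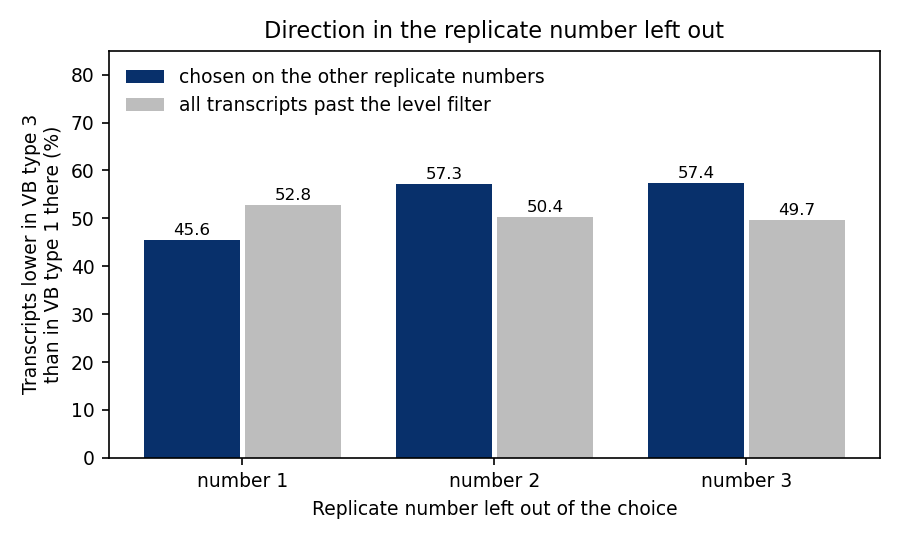
Percentage of transcripts lower in VB type 3 than in VB type 1 in the replicate number left out (x axis), for transcripts chosen by the falling rule on the other replicate numbers (dark bars) and for all transcripts at the level of 2 CPM (grey bars). The dark bars stand at 45.6, 57.3 and 57.4% and the grey bars at 52.8, 50.4 and 49.7%.

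In edgeR's quasi-likelihood test of VB type 3 against VB type 1, 0 of 17448 transcripts passed an adjusted p of 0.05 (0.0% called), so that 0 of the 653 members tested passed, and the lowest adjusted p was 1.00 after rounding. At an unadjusted p under 0.05 there were 469 transcripts, 292 of them lower in VB type 3, and 176 members. The likelihood ratio test of the study's methods called 24 transcripts (0.138%), with 7 members among them. DESeq2 called 21 (0.12%), with 8 members among them. Nothing is read from these member counts, since the same contrast chose the members. The biological coefficient of variation was 0.77 in this comparison.

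Members were mostly low in level. Their median mean was 8.61 CPM over the 9 VB libraries, with quartiles of 4.40 and 19.5 CPM, against a median of 21.1 CPM for all transcripts at the level. Between 2 and 5 CPM the rule took 7.25% of transcripts, and it took 0.518% of those at 100 CPM or more. The rising rule took 2.72% and 0.725% in the same ranges. No pair was counted in at least 1 VB type 3 library for 252 members, and in all of them for 8 members. Members without a pair numbered 0 in each VB type 1 library, 36 to 85 in VB type 2, 95 to 140 in VB type 3 and 71, 77 and 241 in the parenchyma libraries. The number of all transcripts detected was highest in VB type 1, at 21331 to 22463, against 19256 to 21072 in VB type 2 and 20387 to 20518 in VB type 3. The range of VB type 3 lay inside that of VB type 2. The part of this number in the falls was not tested. Since the libraries are bulk tissue, fewer cells of a kind and less RNA per cell cannot be told apart.

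**Figure D3:**
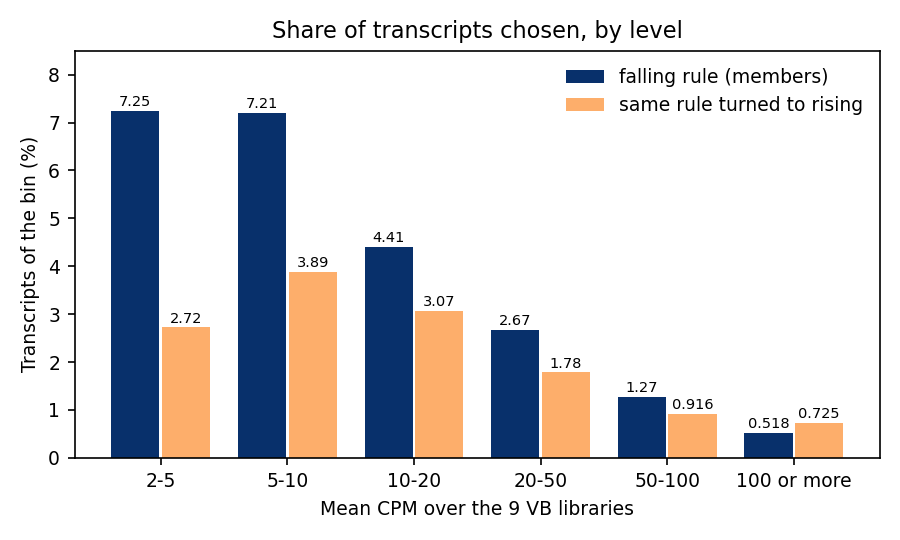
Percentage of the transcripts in each range of mean CPM over the 9 VB libraries (x axis) that were taken by the falling rule (dark bars) and by the same rule turned to rising (orange bars). The falling rule took 7.25% between 2 and 5 CPM, 4.41% between 10 and 20 CPM and 0.518% at 100 CPM or more.

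Length and position did not set the members apart from other transcripts to any large degree. The median transcript length was 1876 bases for members and 1911 bases for all transcripts at the level, and members made up 3.58 to 4.42% of the transcripts of each of the 5 chromosomes. The members came from 702 different loci.

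The largest fall was that of Bradi3g44640.1, which had 18.6, 28.3 and 18.2 CPM in VB type 1, 0.173, 8.43 and 36.2 CPM in VB type 2, 0, 2.00 and 0 CPM in VB type 3 and 45.8, 62.8 and 8.48 CPM in parenchyma. VB type 1 and VB type 3 did not overlap, while the VB type 2 libraries spanned both. Bradi4g43510.1 was at 0 in all 3 VB type 3 libraries, against 7.43, 9.90 and 11.2 CPM in VB type 1, at least 103-fold lower in pooled pairs when 3 pairs over the 3 VB type 3 libraries are taken as the limit. Of the 12 largest falls, 2 belonged to annotated genes, an HSP20-like chaperone and the 12-oxophytodienoate reductase OPR2. OPR2 (Bradi1g45880.1), of an enzyme family that reduces oxylipins, had 5.98, 9.09 and 32.0 CPM in VB type 1, 0, 1.99 and 0.146 CPM in VB type 2, 0, 0 and 1.34 CPM in VB type 3 and 0, 1.07 and 0 CPM in parenchyma. The other large falls with no annotation were Bradi5g09670.1, Bradi1g76560.1, Bradi1g76800.1, Bradi2g35860.1, Bradi3g44820.2, Bradi4g14990.2, Bradi2g00650.1 and Bradi1g17290.1, with differences of -3.93 to -3.02.

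Annotation was thin. Best hits in Arabidopsis or rice were at hand for 104 of the 702 members (14.8%), and 598 are known here by identifier alone. Members made up 7.37% of annotated transcripts at the level and 3.64% of those without annotation. The annotated set came mostly from genes that stood out in the study's own comparisons of these libraries, so its share is not independent of the data. Counts for the gene lists below are read against the 7.37%.

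Transcription factors held 5 members of 84 annotated transcripts, and the median difference of the whole list between VB type 3 and VB type 1 was -0.33, against -0.19 for all annotated transcripts. The best known of them is TMO6 (Bradi1g26570.1), a Dof-type factor that acts downstream of auxin signalling in the procambium of Arabidopsis. TMO6 had 69.1, 183 and 57.6 CPM in VB type 1, 33.9, 54.7 and 84.0 CPM in VB type 2, 38.3, 40.8 and 44.4 CPM in VB type 3 and 5.63, 5.27 and 3.96 CPM in parenchyma. Types 3 and 1 did not overlap, VB type 2 overlapped VB type 1, and every VB library lay above every parenchyma library. The same-number differences of TMO6 were -0.83, -2.14 and -0.37, and without replicate number 2 its fall was -0.60.

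RAP2.12 (Bradi3g60120.3), an ethylene response factor that senses low oxygen in Arabidopsis, had 96.9, 142 and 102 CPM in VB type 1, 85.4, 60.0 and 94.9 CPM in VB type 2, 67.4, 31.2 and 42.9 CPM in VB type 3 and 49.3, 14.1 and 10.7 CPM in parenchyma. The bZIP factor bZIP9 (Bradi3g05577.1) had 30.7, 151 and 57.8 CPM in VB type 1, 5.79, 44.3 and 41.2 CPM in VB type 2, 18.0, 18.3 and 24.0 CPM in VB type 3 and 11.1, 5.48 and 11.9 CPM in parenchyma. In both, VB type 3 lay below VB type 1 without overlap. The remaining members of the list were the Dof factor OBP3 (Bradi1g03710.2) and a basic helix-loop-helix protein (Bradi3g48070.3).

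Transporters held 4 members of 73 annotated transcripts (5.48%), and the median of the whole list was 0.04. They included both amino acid permeases among the members. AAP1 (Bradi4g40570.1) had 35.5, 57.3 and 35.8 CPM in VB type 1, 0, 5.40 and 47.9 CPM in VB type 2, 3.19, 27.3 and 0.822 CPM in VB type 3 and 0.216, 0.054 and 0.566 CPM in parenchyma. AAP2 (Bradi2g56970.4) had 2.32, 76.6 and 140 CPM in VB type 1, 0.086, 23.2 and 34.5 CPM in VB type 2, 0.551, 3.38 and 18.1 CPM in VB type 3 and 0.865, 0.699 and 0.566 CPM in parenchyma. Both permeases, which carry amino acids across the plasma membrane, had under 1 CPM in every parenchyma library. AAP1 separated VB type 3 from VB type 1, while AAP2 did not, since its replicate number 1 was low in every VB type.

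Primary wall growth held 2 members of 42 annotated transcripts (4.76%). XTH32 (Bradi1g27867.1), a xyloglucan endotransglucosylase/hydrolase of the kind that remodels growing walls, had 38.2, 564 and 473 CPM in VB type 1, 9.42, 121 and 446 CPM in VB type 2, 29.8, 68.4 and 231 CPM in VB type 3 and 22.1, 28.2 and 10.2 CPM in parenchyma. Its replicate number 1 was low in every VB type, and the types overlapped. The other was GH9B18 (Bradi4g35970.1), a family 9 glycosyl hydrolase, with a difference of -2.70. The list of secondary wall, lignin and xylem genes held 1 member of 18, IRX10 (Bradi2g59410.1), a glucuronoxylan synthase, and the median of that list was -0.15. Its search words did not take in C4H (Bradi2g31510.1) of the lignin pathway, which was also a member and is described below.

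The pattern of replicate number 1 seen in XTH32 and AAP2 was more common among members than among transcripts in general. Replicate 1 was the lowest library within each of the 3 VB types in 79 members (11.3%), against 7.07% of all transcripts at the level. Replicate 1 was the highest within each type in 8.55% of members and 11.8% of all. C4H (Bradi2g31510.1), cinnamate-4-hydroxylase of the lignin pathway, chosen after its values were seen, is of this kind, with 10.3, 78.5 and 149 CPM in VB type 1, 18.6, 37.1 and 56.3 CPM in VB type 2, 1.32, 27.3 and 52.4 CPM in VB type 3 and 1.08, 1.29 and 13.6 CPM in parenchyma.

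Heat shock, chaperone and stress genes held 4 members of 51 annotated transcripts (7.84%), and 4 other transcripts of this list rose by the same rule. The list's members were 3 HSP20-like chaperones, small proteins that bind unfolding proteins, and a late embryogenesis abundant (LEA) hydroxyproline-rich glycoprotein. The HSP20-like Bradi1g74620.2 had 14.6, 37.1 and 7.78 CPM in VB type 1, 0.173, 22.7 and 4.31 CPM in VB type 2, 1.43, 0 and 0 CPM in VB type 3 and 0, 0 and 0.566 CPM in parenchyma. Its relative Bradi2g42130.1 had 8.11, 10.1 and 2.52 CPM in VB type 1, 0, 9.76 and 0.073 CPM in VB type 2, 0.220, 0 and 0 CPM in VB type 3 and 0.043, 0.107 and 0 CPM in parenchyma. RTM2 (Bradi3g27350.2) had 3.28, 7.79 and 2.45 CPM in VB type 1, was at 0 in all parenchyma libraries, and overlapped between VB type 3 and VB type 1. All 3 were low in VB type 2 replicate 1 and high in VB type 2 replicate 2.

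**Figure D4:**
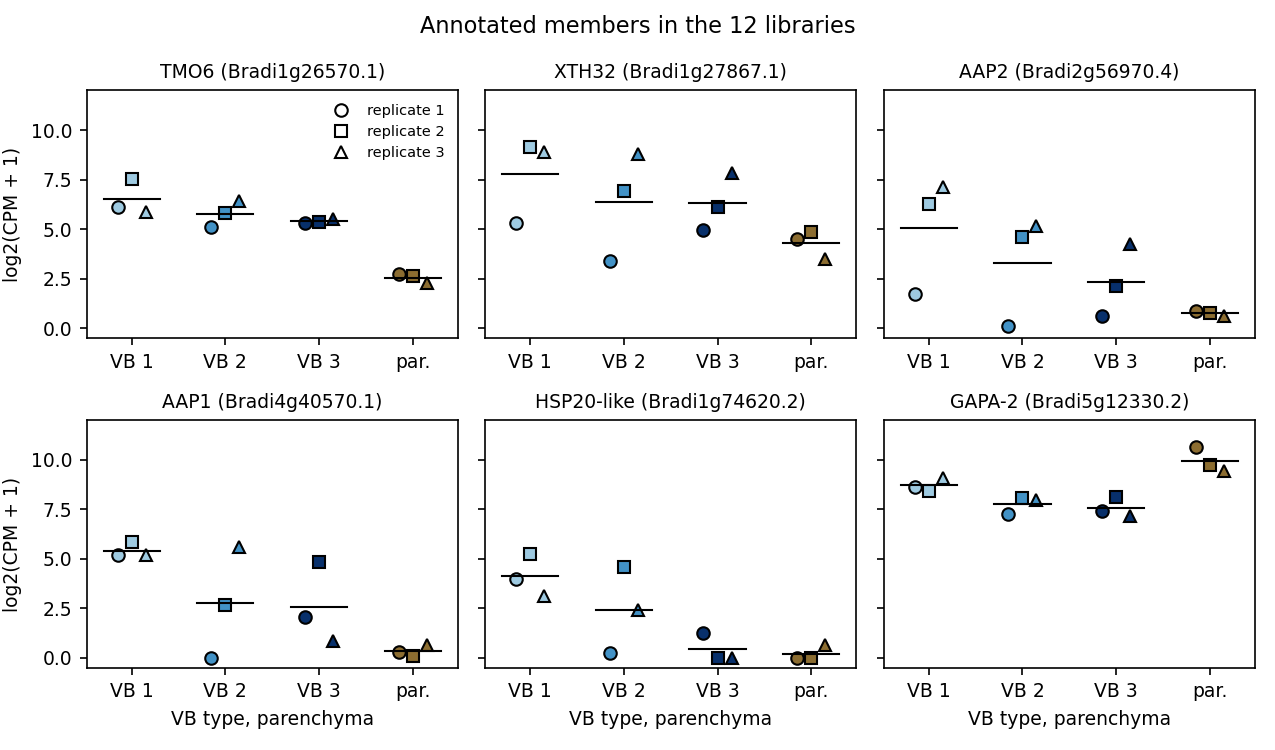
Level of 6 annotated members in the 12 libraries, as log2(CPM + 1), by VB type and in parenchyma (par.); each symbol is a library, its shape gives the replicate number and the line is the mean of the 3 libraries. Libraries of replicate number 1 (circles) are the lowest of each VB type for XTH32 and AAP2, and GAPA-2 alone of the 6 is higher in parenchyma than in every VB library.

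The list of receptor kinases and small peptides, matched on annotation text, held 3 members of 30 annotated transcripts. Of these members only Bradi3g50190.1 is annotated as a kinase. A leucine-rich repeat protein, Bradi3g45402.2, had 10.2, 62.2 and 33.8 CPM in VB type 1, 9.59, 23.8 and 6.87 CPM in VB type 2, 0.661, 2.61 and 7.50 CPM in VB type 3 and 1.25, 3.38 and 0.566 CPM in parenchyma, with no overlap of VB types 3 and 1. A receptor-like protein kinase (Bradi3g50190.1) and a disease resistance protein of the TIR-NBS-LRR annotation (Bradi5g02240.2) overlapped between the types. Cytokinin genes held 1 member of 9, the cytokinin oxidase CKX5 (Bradi2g06030.1), an enzyme that breaks cytokinin down. CKX5 had 3.57, 2.52 and 1.51 CPM in VB type 1, 0.259, 15.6 and 0 CPM in VB type 2, 3.08, 0 and 0 CPM in VB type 3 and 0, 0.645 and 2.26 CPM in parenchyma. A single library, VB type 2 replicate 2, held its highest value, and its mean CPM did not fall from VB type 1 to VB type 2.

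Lists with at most 1 member were auxin with 1 of 25, chromatin and RNA processing with 1 of 13, cell cycle and DNA replication with 0 of 7, ribosome and translation with 0 of 16 and other hormones with 0 of 22. The cell cycle list was matched on annotation text. It took in the cycling DOF factors Bradi2g09720.1 and Bradi2g10640.1, which are transcription factors, so nothing is read from its count about dividing cells. Among the lists that mark cell types, epidermis and cuticle held 1 of 23, and phloem with 8, meristem and organ primordia with 13 and photosynthesis and chloroplast with 40 transcripts held 0. The summed level of the meristem list was 392 to 608 CPM in VB type 1, 346 to 534 CPM in VB type 2, 365 to 700 CPM in VB type 3 and 59.4 to 125 CPM in parenchyma. The phloem list summed to 406 to 751 CPM in VB type 1, 311 to 778 CPM in VB type 2, 443 to 803 CPM in VB type 3 and 58.3 to 115 CPM in parenchyma. For the photosynthesis list the sums were 4668 to 8262 CPM in VB type 1, 7817 to 10720 CPM in VB type 2, 5588 to 9749 CPM in VB type 3 and 18690 to 40240 CPM in parenchyma. Those of the epidermis list were 496 to 2692, 617 to 2668, 577 to 1478 and 1889 to 9071 CPM in the same groups. The ranges of VB types 1 and 3 overlapped for each of these 4 lists, and at most 3 transcripts of a list were at 0 in a VB library.

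Among the members with the highest mean CPM, Bradi4g33510.1 had 784, 1421 and 1568 CPM in VB type 1, 520.1, 559 and 1234 CPM in VB type 2, 522, 638 and 519.8 CPM in VB type 3 and 4656, 2381 and 549 CPM in parenchyma. Bradi3g39780.1 had 262, 308 and 1144 CPM in VB type 1, 147, 153 and 244 CPM in VB type 2, 135, 152 and 195 CPM in VB type 3 and 2933, 1308 and 944 CPM in parenchyma. Both separated VB type 3 from VB type 1. The other members of highest mean were GAPA-2 (Bradi5g12330.2), Bradi4g08500.2, XTH32, Bradi2g34910.1, Bradi1g23257.2 and Bradi1g65590.1, a 2-oxoglutarate and Fe(II)-dependent oxygenase.

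The choice of members used no parenchyma library, but it used all the VB libraries that are set against parenchyma here, so that the VB side of this comparison is not independent of the choice. The parenchyma mean level lay between those of VB type 3 and VB type 1 for 321 members (45.7%), at or above that of VB type 1 for 139 (19.8%) and at or below that of VB type 3 for 242 (34.5%). Over all transcripts at the level, it lay between the 2 types for 17.2%, at or above the higher for 23.1% and at or below the lower for 59.7%. The gap between the types was made wide for members by the rule. Without parenchyma replicate 3, 27.8% of members were at or above VB type 1 and 29.2% at or below VB type 3, and over all transcripts the shares were 31.9% and 49.7%.

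**Figure D5:**
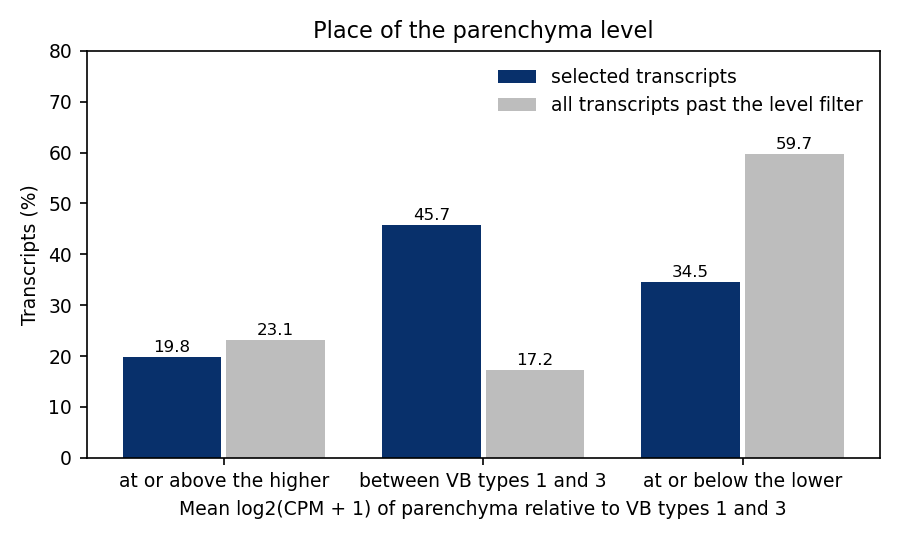
Percentage of transcripts whose mean log2(CPM + 1) in parenchyma lay at or above the higher of VB types 1 and 3, between them, or at or below the lower, for the 702 members (dark bars) and for all 17860 transcripts at the level of 2 CPM (grey bars). Members stand at 19.8, 45.7 and 34.5%, and all transcripts at 23.1, 17.2 and 59.7%.

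In the quasi-likelihood test of all VBs against parenchyma, 35 of the 608 members tested were called (5.76%), against 5.02% of all 16706 transcripts tested. Higher in VBs were 12 members (1.97%), against 1.25% of all, and lower in VBs were 23 (3.78%), against 3.78% of all. With the likelihood ratio test 90 members (14.8%) were called, beside 1676 of all 16706 transcripts tested. By that test 6.41% of members and 3.54% of all were higher in VBs, and 8.39% of members and 6.49% of all were lower. With DESeq2 14.5% of members and 10.9% of all were called, and without the filter on low counts 6.7% of members and 3.8% of all. Members at or near 0 in parenchyma passed that filter through the VB libraries alone, so these shares describe the members and are no test of them. A positive log2 fold change of VBs over parenchyma (edgeR, TMM-scaled counts) was seen for 257 members (42.3%), and the share over all transcripts was not counted. Without parenchyma replicate 1, 2 or 3 the share of members was 49.0, 44.3 or 39.6%. The median log2 fold change was -0.32 for members and 0.01 for all transcripts tested. Without parenchyma replicate 1 the medians were -0.07 and 0.12, and without parenchyma replicate 2 they were -0.16 and 0.07. All 9 VB libraries lay above all parenchyma libraries in 17 members (2.42%), against 5.16% of all transcripts at the level, and below them in 16 (2.28%), against 2.5%. Under library totals without TMM scaling, 46.9% of all calls were higher in VBs, against 24.8% with it, the median of all transcripts was 0.18 and that of members -0.17, and 9 members (1.48%) were called, against 0.868% of all. Without VB type 1 replicate 2, 22 members (4.04%) were called, against 3.69% of all.

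Of the members of highest mean, Bradi3g39780.1 was lower in VBs than in parenchyma, with a log2 fold change of -3.0 and a standard error of 0.41 (edgeR adjusted p = 0.00101). Bradi4g33510.1 was lower as well, at -1.83 with a standard error of 0.41 (edgeR adjusted p = 0.0205), and lost that call without parenchyma replicate 1 (adjusted p = 0.175), parenchyma replicate 2 (0.0593), VB type 2 replicate 2 (0.0502) or TMM (0.161). In Bradi4g33510.1 parenchyma replicate 3 lay within the range of the VB libraries.

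The photosynthesis list, with 0 members among 40 transcripts, had a median difference of VB type 3 from VB type 1 of 0.19, and 13 of the 40 were lower in VB type 3. Its search words did not take in GAPA-2, HPR and ATPD, which were members. GAPA-2 (Bradi5g12330.2), a subunit of the chloroplast glyceraldehyde 3-phosphate dehydrogenase of the Calvin cycle, had 389.7, 345 and 544 CPM in VB type 1, 152, 270 and 253 CPM in VB type 2, 167, 273 and 143 CPM in VB type 3 and 1579, 849 and 684 CPM in parenchyma. Its log2 fold change of VBs over parenchyma was -2.26 with a standard error of 0.28 (edgeR adjusted p = 0.000776), and every VB library lay below every parenchyma library. Without TMM the adjusted p of GAPA-2 was 0.0767, and every other alternative kept its call. Hydroxypyruvate reductase HPR (Bradi3g00330.1), an enzyme of photorespiration, had 29.1, 44.1 and 40.8 CPM in VB type 1, 28.4, 13.0 and 38.4 CPM in VB type 2, 3.08, 10.8 and 7.50 CPM in VB type 3 and 172, 108 and 95.0 CPM in parenchyma. The fold change of HPR was -3.0 with a standard error of 0.39 (edgeR adjusted p = 0.000904).

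ATPD (Bradi3g59130.1), the delta subunit of the chloroplast ATP synthase, had 40.1, 56.1 and 85.7 CPM in VB type 1, 31.5, 56.5 and 50.4 CPM in VB type 2, 26.5, 43.0 and 14.6 CPM in VB type 3 and 257, 188 and 163 CPM in parenchyma. For ATPD the fold change was -2.56 with a standard error of 0.34 (edgeR adjusted p = 0.000905, and 0.063 without TMM). HPR and ATPD were chosen after their values were seen. HPR separated VB type 3 from VB type 1, and ATPD did not.

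Of the members with the largest negative fold changes, Bradi1g67020.2 had 25.6, 13.2 and 37.7 CPM in VB type 1, 13.3, 2.65 and 4.68 CPM in VB type 2, 8.15, 2.61 and 1.23 CPM in VB type 3 and 141, 23.8 and 81.4 CPM in parenchyma. Its log2 fold change was -3.56 with a standard error of 0.60 (edgeR adjusted p = 0.00365), and the call held under all 21 alternatives, although the VB and parenchyma libraries overlapped. Bradi2g61454.1, Bradi2g00986.1, Bradi2g19320.3 and Bradi4g32730.1 had fold changes of -4.61 to -3.24 and passed under 10, 17, 19 and 14 of the 21 alternatives. Bradi2g61454.1 rested on parenchyma replicate 3, which had 139 CPM against 6.49 and 1.40 CPM in the other parenchyma libraries, and its fold change without that library was -0.48. Without the same library the fold changes of Bradi2g00986.1 and Bradi2g19320.3 were -3.05 and -1.60 and did not pass, with adjusted p of 0.142 and 0.189. For Bradi4g32730.1 it was parenchyma replicate 2 without which the value was -2.17, with an adjusted p of 0.272.

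Among members higher in VBs, TMO6 had a log2 fold change of 3.33 with a standard error of 0.53 over parenchyma (edgeR adjusted p = 0.00246). ALS3 (Bradi2g37680.1), an ABC transporter subunit named for aluminium sensitivity, had 11.1, 13.2 and 14.9 CPM in VB type 1, 2.77, 15.4 and 5.85 CPM in VB type 2, 0.551, 10.4 and 1.64 CPM in VB type 3 and 0 CPM in every parenchyma library. Its level over the pooled pairs of the 9 VB libraries, 8.79 CPM, was at least 127-fold higher than the limit of 3 pairs over the 3 parenchyma libraries, 0.069 CPM (edgeR adjusted p = 0.019). XTH32, AAP1 and AAP2 had fold changes of 3.02, 6.45 and 4.65 with standard errors of 1.11, 2.04 and 1.70, and did not pass (edgeR adjusted p = 0.146, 0.092 and 0.146). All 3 passed with DESeq2 and with the likelihood ratio test, at adjusted p of 8.28e-05 to 0.041. XTH32 and AAP2 passed in only 2 of the 21 alternatives and AAP1 in 4. For ALS3, leaving out parenchyma replicate 1 or 2 raised the edgeR adjusted p to 0.0595 or 0.0626. ALS3, AAP1 and AAP2 passed the filters on level through the VB libraries alone, so their adjusted p describe them and are no independent support.

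MAP65-8 (Bradi3g41211.1), a protein that bundles microtubules, had 10.5, 5.68 and 12.0 CPM in VB type 1, 0.086, 13.2 and 16.4 CPM in VB type 2, 0.441, 2.69 and 2.88 CPM in VB type 3 and 0 CPM in every parenchyma library, at least 108-fold higher in pooled VBs (edgeR adjusted p = 0.0447). The LEA glycoprotein Bradi1g25800.1 had 8.88, 9.50 and 9.72 CPM in VB type 1, 5.79, 5.30 and 3.07 CPM in VB type 2, 2.31, 0 and 6.88 CPM in VB type 3 and likewise 0 CPM in parenchyma, at least 83.0-fold higher (edgeR adjusted p = 0.0497). These calls were near the threshold and held in 9 and 6 of the 21 alternatives, with adjusted p up to 0.122 for MAP65-8 and 0.128 for Bradi1g25800.1. Leaving out any of the 3 parenchyma libraries, or any of the 3 VB type 1 libraries, lost both. MAP65-8 and Bradi1g25800.1 passed the filters on level through the VB libraries alone, so their adjusted p are no independent support either.

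Bradi4g12140.1, a protein of unknown function (DUF247), had 5.50, 42.6 and 84.3 CPM in VB type 1, 0.086, 22.9 and 74.6 CPM in VB type 2, 4.18, 6.45 and 11.6 CPM in VB type 3 and 1 pair in all of parenchyma. The ratio of its level in pooled VB libraries to that in pooled parenchyma libraries was 1360, with an exact Poisson interval for that pair of 243 to 53600, and the ratio of the library means was 1560. Bradi3g13352.1 also had 1 pair in parenchyma, against 18.3, 58.0 and 17.6 CPM in VB type 1, 11.4, 32.2 and 44.3 CPM in VB type 2 and 5.29, 12.4 and 5.96 CPM in VB type 3, a pooled ratio of 1040 with an interval of 187 to 41100. That pair lay in the shallow parenchyma replicate 3, and the ratio of the library means was 121, outside the interval of the pooled ratio. The call for Bradi3g13352.1 held in all 21 alternatives and that for Bradi4g12140.1 in 18, the exceptions being those without a parenchyma library (adjusted p = 0.0724 to 0.101). Both intervals cover counting error only. The 2 genes passed the filters on level through the VB libraries, so their calls describe them and are no independent support.

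Genes close to the threshold show how narrow its edge was. Just inside were Bradi5g02530.1 with a difference of -1.002 between VB type 3 and VB type 1 and Bradi5g19660.2 with -1.004. Just outside were Bradi5g02400.3 with -0.9988 and Bradi1g53170.1 with -0.995. Bradi5g02530.1 had 1.10, 3.15 and 2.88 CPM in VB type 3, against 3.48, 8.69 and 5.26 CPM in VB type 1, and Bradi5g02400.3 had 49.9, 27.3 and 68.3 CPM in VB type 3, against 71.2, 128 and 84.5 CPM in VB type 1. In both, the types did not overlap.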

How the data were processed

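Trimming by Trimmomatic, ribosomal read removal by sortMeRNA and local alignment to the transcriptome by Bowtie2 were done by the authors, and the deposited files give counts of read pairs per transcript (both reads unambiguous) and counts of single reads. Pairs shared by near-identical copies were thus not counted, so families such as HSP20, XTH and amino acid permeases are uncertain to that degree. Labels and paper differ on whether strand was kept, so antisense overlaps are uncertain.

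The CPM printed here and used by the rule were computed from pair counts with Bradi2g12067.1 left out. The tests, their filter of 1 CPM and the totals without TMM kept that transcript in. With it removed from the test of all VBs against parenchyma, 660 members were tested instead of 608. Of these 660, 32 were called (4.85%), against 4.66% of all. The members, lists and comparisons were chosen with earlier results of these data known, and no shuffling of the types was done. Named genes followed a rule fixed with the lists. It took the 12 largest falls, the 8 highest means and the 3 highest members of lists with at least 3 members. It also took genes the study names, the edges of the threshold, and the 5 largest and 5 smallest fold changes among members called against parenchyma. OBP3, Bradi3g48070.3, GH9B18, IRX10 and RTM2 lie outside this rule and were named as members of their lists. Other genes outside it are marked, and TMO6, XTH32 and the permeases were also tested against parenchyma. Tests used edgeR 4.0.16 in R 4.3.3 (quasi-likelihood F-test, TMM, at least 1 CPM in 3 of 6 or 6 of 12 libraries, Benjamini-Hochberg over all transcripts tested, threshold 0.05), and VBs were set against parenchyma by the average of the 3 VB type coefficients. DESeq2 1.42.0 and the likelihood ratio test were alternatives. Scripts were tested on simulated counts with a shared spread, in which 200 transcripts were changed 16-fold. The quasi-likelihood test of VB type 3 against VB type 1 called 98 of the 200. A lack of calls there does not show a lack of differences. For VBs against parenchyma, the quasi-likelihood test called 164 changed and 5 unchanged transcripts. DESeq2 called 192 and 109 there, and the likelihood ratio test 184 and 9. Separate plants per library are stated in the paper only as biological replicates, so p-values measure the spread between these libraries.

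Annotation came from the study's supplementary tables. Where 2 of these tables annotated the same transcript, the comparison and microarray tables gave the same Arabidopsis gene in 57 of 57 cases, whereas a further table gave a different one in 524 of 524, and that further table was not used. The gene name table matched none of the identifiers, and promoter and protein sequences were not used here. Columns of fold changes and p-values in these tables were not used.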

Additional observations from a re-analysis of the deposited data

How the results depend on the processing

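The number of members was 702 and stayed between 505 and 855 under TMM-scaled totals, the dominant transcript kept, single-read counts, a pseudocount of 0.5, other level filters and, added after seeing the data, means taken on CPM (594). A pseudocount of 5 left 322, requiring no overlap of VB types 3 and 1 left 376, and the rising mirror took 400. Leaving out a replicate number gave 962 to 1323 transcripts, since 1 condition fewer is asked, and 405 to 450 of them were members. With the dominant transcript kept in the totals, 557 of the members remained.

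For VB type 3 against VB type 1 the count of calls was 0 except for 24 by the likelihood ratio test and 21 by DESeq2. For all VBs against parenchyma it was 839, with 1676 by the likelihood ratio test, 1829 by DESeq2, 145 without TMM and 573 to 827 with a library left out. The members called were 35, with 90 by the likelihood ratio test, 88 by DESeq2, 9 without TMM and 22 to 40 with a library left out, or 4.04 to 6.99% of members beside 3.45 to 5.06% of all. The cause was not tested.

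With the replicate number as a block, 0 transcripts were called for VB type 3 against VB type 1. For VBs against parenchyma 777 (4.65%) were called, with 34 of the 608 members tested (5.59%) among them. The sources do not say whether the number pairs the samples. Same-numbered libraries of different VB types deviated together in numbers 1 and 3 (correlation across transcripts 0.22 to 0.49), while in number 2 it was -0.07 to 0.02, and not every library correlated best with its own number. Among the named genes, 319 recomputed falls stayed within the spread over numbers, 17 moved and 0 reversed, and of the recomputed fold changes of 22 named genes against parenchyma 380 kept their side of the threshold, 74 lost the call, 8 gained it and 0 reversed. Promoter motifs were not run.

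Depth limited parenchyma replicate 3, where 3 pairs are 1.70 CPM, and members at a few CPM in VB type 3.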

Other observations

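Members with no place in the comparisons above include several annotated genes that were chosen after their values were seen. Phospholipase D alpha 1 (Bradi1g60680.1), which releases phosphatidic acid from membrane lipids, had 10.9, 18.6 and 9.79 CPM in VB type 1, 3.89, 3.13 and 0.731 CPM in VB type 2, 1.21, 1.69 and 0 CPM in VB type 3 and 0 CPM in every parenchyma library. Its same-number differences of VB type 3 from VB type 1 were -2.43, -2.87 and -3.43, a more even fall than that of most members.

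Sucrose synthase SUS6 (Bradi1g29570.2), of the enzyme family that splits sucrose for wall and callose synthesis, had 16.1, 42.5 and 41.6 CPM in VB type 1, 12.9, 56.6 and 6.14 CPM in VB type 2, 14.3, 0 and 6.17 CPM in VB type 3 and 0, 0.107 and 0 CPM in parenchyma. The early nodulin-like protein ENODL9 (Bradi2g52155.1) had 23.3, 55.0 and 51.1 CPM in VB type 1, 9.25, 76.4 and 62.6 CPM in VB type 2, 13.9, 3.99 and 13.4 CPM in VB type 3 and 0.087, 0 and 1.70 CPM in parenchyma. SUS6 and ENODL9 passed the filters on level through the VB libraries, so their calls describe them and are no independent support. Both were called higher in VBs than in parenchyma (edgeR adjusted p = 0.0303 for SUS6 and 0.0246 for ENODL9), the calls held in 15 and 17 of 21 alternatives and were lost without parenchyma replicate 1 or 2, VB type 1 replicate 2 or VB type 2 replicate 2, for SUS6 also without parenchyma replicate 3 (adjusted p = 0.081) or with single-read counts (0.0561), and both separated VB type 3 from VB type 1.

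Annexin 7 (Bradi3g58830.1), a calcium-dependent membrane-binding protein, ran the other way against parenchyma, with 45.7, 168 and 207 CPM in VB type 1, 24.1, 57.9 and 183 CPM in VB type 2, 15.6, 72.0 and 104 CPM in VB type 3 and 574, 528 and 838 CPM in parenchyma. Its log2 fold change of VBs over parenchyma was -3.18 with a standard error of 0.59 (edgeR adjusted p = 0.00713, but 0.052 without parenchyma replicate 3 and 0.0531 without TMM), and the VB types overlapped with one another.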
